A study of Mus musculus with 16 samples.

Results

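Livers at day 2 after partial hepatectomy were compared with livers at day 0 in 3 arms of a mouse study: MET_KO, MET_FLOX_canertinib and MET_FLOX. Partial hepatectomy is the surgical removal of liver lobes, which the remaining liver replaces by growth. The members were the 6 arrays that the labels give as D2 or D0 of these arms, of 16 arrays in all, with 3 at day 2, 3 at day 0 and 1 for each arm and day. They were set against each other within an arm. The arm MET_KO_canertinib was left out of the comparison and is described at the end.

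All 4 arms carried the same labelled genotype, Metff/ff:ERCre+/+, in which Met is flanked by recombination sites and Cre recombinase is tamoxifen-inducible, on the strain background 129SV/C57BL/6. In MET_KO and MET_KO_canertinib mice, exon 16 of Met was deleted through the inducible recombinase. MET_FLOX_canertinib and MET_KO_canertinib mice ate food containing canertinib, a kinase inhibitor of EGFR and its family members, with 80 mg/kg as the aim. MET_FLOX mice had the floxed gene and no canertinib. The inhibition was systemic, so cells other than hepatocytes were exposed too. The labels give neither age nor sex, and whether an array holds 1 liver or a pool was not stated. The p-values of the comparison rest on the spread that arm and day leave over between 9 arrays, these 6 and the day 7 arrays of the same arms. In the fit this spread is moderated with that of all genes. They do not measure the spread between mice of an arm. As the question of the study stands in its title, it concerned liver regeneration without MET and EGFR signalling; the comparison here asks what the livers with at most 1 of the receptors targeted had in common at day 2.

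MET is the receptor of hepatocyte growth factor, and EGFR that of epidermal growth factor and its relatives. Both are known to drive quiescent hepatocytes back into the cell cycle. After hepatectomy in mice, hepatocytes leave quiescence, induce cyclin D1, license and fire replication origins, copy their DNA and then build spindles and divide, and the non-parenchymal cells of the liver follow. Genes of DNA copying are known to be switched on largely by E2F factors, and genes of mitosis by complexes that include MuvB, B-MYB, NF-Y and FOXM1.

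The values were MAS5 signals, one brightness per probe set on a linear scale. Differences are given as log2(signal + 16), day 2 minus day 0, as the mean of 3 arms with the standard error (SE) of the model. In every array the trimmed mean signal was 500, while the median signals fell into 2 sets that no label names. The 4 arrays of MET_KO and MET_FLOX had medians of 156.4 to 188.7, and both of MET_FLOX_canertinib 249.0 and 251.4, so that day 2 and day 0 of an arm always lay in the same set. The Gapdh 3' to 5' ratio, a sign of RNA quality, was 0.765 to 1.11 over the 6 arrays. For Met the signals were 1618 in MET_KO, 1165 in MET_FLOX_canertinib and 1418 in MET_FLOX at day 2, against 2066, 1118 and 1577 at day 0. No source used here places these probe sets relative to exon 16, so the deletion is not checked by them. The change of Met was -0.15 (SE 0.19, limma adjusted p = 0.749), and that of Egfr -0.16 (limma adjusted p = 0.833) and Hgf 0.24 (limma adjusted p = 0.805), with overlapping groups in each. Met has 2 probe sets, and they disagreed in sign.

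Of 13575 genes tested, limma called 155 higher at day 2 (1.14% of the genes) and 53 lower (0.39%), at a Benjamini-Hochberg adjusted p below 0.05. All 208 moved the same way in 3 of 3 arms. The fit takes its spread from disagreement between arms, so it favours such genes, and this count is no separate evidence. Of the 155, 72 (46.5%) were in 6 lists of cell cycle genes, where none was called lower. At day 2 all 3 arrays lay above all 3 of day 0 for 142 of the 155, and below them for 45 of the 53. Over all genes these shares were 5.79% and 5.76%. The genes were called from the same arrays, which favours such separation, so these counts too are no separate evidence. Of the 13575 changes 5642 were positive, and counts of positive changes in the lists below are read against this. Counts of called genes in the lists are read against the 1.14% higher and 0.39% lower of all genes. Of the calls 74.5% were higher, and with each array centred on its median 85.5%, with 200 genes higher and 34 lower. This centring moved the median of all genes to 0.02 from -0.09.

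**Figure D1:**
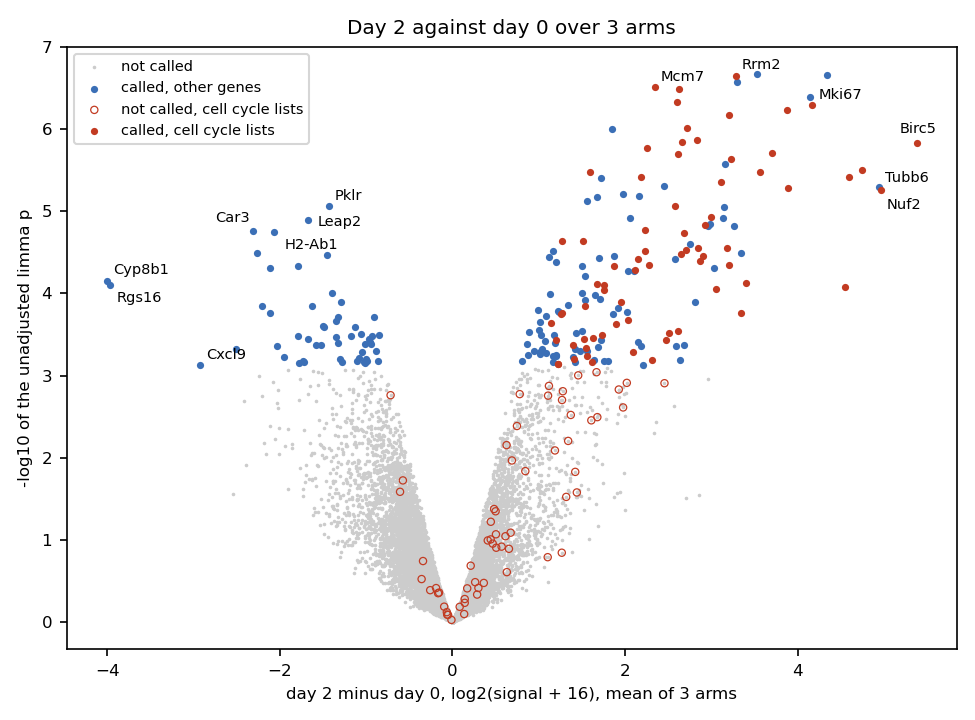
Day 2 minus day 0 over 3 arms on log2(signal + 16) (x axis) against -log10 of the unadjusted limma p (y axis), 1 point per gene, 13575 in all. Filled points are the 155 genes called higher and the 53 called lower, red where they belong to the 6 cell cycle lists, and open red circles are uncalled genes of these lists. The cell cycle genes lie to the right, and the largest falls, Cyp8b1 and Rgs16, lie near -4.00.

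The promoters of 6 genes that rose are shown because the risers included both genes of DNA copying and genes of mitosis, whose known regulators bind different letters. They are the 250 bases before the RefSeq transcript start in build GRCm38.p6, written 5' to 3' on the strand of the gene. Capitals mark 3 kinds of letters, each searched on both strands. The first is CCAAT, which reads ATTGG where it lies on the opposite strand. The second is TTTGAA, or the variant form TTTAAA. The third is the E2F-type string GCGGGAA, or its variant with a different middle, GCGCGAA. No kind contains another kind. Mcm7 lies at chr5:138171267-138171516 (minus strand), Mcm2 at chr6:88898781-88899030 (minus strand), D17H6S56E-5 at chr17:35000747-35000996 (minus strand) and Ncapg2 at chr12:116405186-116405435 (plus strand); these 4 followed from a rule on p and on letters. Mki67 at chr7:135716380-135716629 (minus strand) and Cdc20 at chr4:118437344-118437593 (minus strand) were added after the shares below were seen.
Mcm7: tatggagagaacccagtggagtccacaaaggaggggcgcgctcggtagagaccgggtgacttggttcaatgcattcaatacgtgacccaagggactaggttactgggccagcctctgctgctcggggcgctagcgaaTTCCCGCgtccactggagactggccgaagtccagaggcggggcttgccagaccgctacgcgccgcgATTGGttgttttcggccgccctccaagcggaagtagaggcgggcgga
Mcm2: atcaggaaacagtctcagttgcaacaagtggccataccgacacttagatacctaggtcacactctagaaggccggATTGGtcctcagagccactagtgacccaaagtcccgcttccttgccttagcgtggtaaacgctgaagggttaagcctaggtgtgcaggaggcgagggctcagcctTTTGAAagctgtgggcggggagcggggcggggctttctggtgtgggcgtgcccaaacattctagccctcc
D17H6S56E-5: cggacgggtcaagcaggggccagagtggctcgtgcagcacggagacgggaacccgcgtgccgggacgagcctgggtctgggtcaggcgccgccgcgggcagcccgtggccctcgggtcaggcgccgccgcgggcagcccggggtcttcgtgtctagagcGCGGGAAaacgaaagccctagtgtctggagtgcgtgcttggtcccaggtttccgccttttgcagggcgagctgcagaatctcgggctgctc
Ncapg2: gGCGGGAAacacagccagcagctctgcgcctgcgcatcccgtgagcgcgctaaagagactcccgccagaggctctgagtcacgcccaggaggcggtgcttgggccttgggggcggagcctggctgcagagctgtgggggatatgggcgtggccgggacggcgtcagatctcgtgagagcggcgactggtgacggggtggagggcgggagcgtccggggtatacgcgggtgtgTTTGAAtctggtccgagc
Mki67: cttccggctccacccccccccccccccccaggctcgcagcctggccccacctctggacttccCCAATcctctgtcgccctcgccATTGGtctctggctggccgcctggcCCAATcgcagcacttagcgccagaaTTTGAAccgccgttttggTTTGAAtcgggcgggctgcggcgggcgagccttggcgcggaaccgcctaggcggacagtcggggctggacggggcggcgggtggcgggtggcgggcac
Cdc20: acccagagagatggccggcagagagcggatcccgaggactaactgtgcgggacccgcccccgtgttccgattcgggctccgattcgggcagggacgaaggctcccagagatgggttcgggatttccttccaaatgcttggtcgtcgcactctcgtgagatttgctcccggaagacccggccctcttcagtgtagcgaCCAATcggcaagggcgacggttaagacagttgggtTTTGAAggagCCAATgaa

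Mcm7, a helicase subunit, held the letters TTCCCGC at 113 bases before the start and ATTGG at 47. Mki67 held 3 CCAAT strings at 188, 166 and 141 bases and 2 TTTGAA strings at 116 and 98. Cdc20 held CCAAT at 53 and 8 bases with TTTGAA between them at 18. CCAAT stood in 34.6% of 13817 promoters of the 10880 tested genes with an entry, in 60.7% of the 145 promoters of the genes that rose, and in 40.0% of the 55 promoters of those that fell. It stood in 81.2% of 32 promoters of risers in the 2 mitosis lists and in 64.3% of 28 in the replication lists. CCAAT together with TTTGAA or TTTAAA was found in 46.9% of the mitosis promoters, 14.3% of the replication promoters and 6.51% of all promoters. The E2F-type letters ran the other way, with 35.7% of the replication promoters, 6.25% of the mitosis promoters and 8.11% of all. These shares are descriptions with no test, a gene can have several promoters, and a match of letters is not a bound site.

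Genes of origin licensing and of the replicative helicase were higher at day 2. Of 16 measured, 10 rose and none fell, with a median change of 2.07 over the list against -0.09 over all genes. Mcm7 gave 7852, 5001 and 6760 at day 2 in MET_KO, MET_FLOX_canertinib and MET_FLOX, against 1519, 1038 and 1246 at day 0. The lowest day 2 array thus stood above 3 times the highest day 0 array. The change was 2.34 (SE 0.19, limma adjusted p = 0.000724), and all 4 probe sets of the gene were higher. Mcm2, another subunit, gave 2733, 2404 and 1866 against 348, 414 and 325, a change of 2.62 (SE 0.21, limma adjusted p = 0.000724). The other 4 subunits of this ring rose as well, Mcm4 by 2.25, Mcm3 by 2.71, Mcm5 by 2.85 and Mcm6 by 2.93. Cdt1, which loads the ring onto origins, rose by 1.89 and its inhibitor Gmnn by 1.53, and Dbf4, the activating subunit of the kinase that fires origins, rose by 3.21. Orc1, a subunit of the origin recognition complex, was at -0.61 (limma adjusted p = 0.26) and Mcm10 at -0.06.

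At the replication fork and in chromatin assembly 14 of 27 genes rose and none fell, and 26 of 27 had a positive change, with a median of 1.44. Top2a, which untangles copied DNA, gave 3783, 2225 and 2242 at day 2 in MET_KO, MET_FLOX_canertinib and MET_FLOX, against 98, 210 and 218 at day 0. The groups were far apart, and the change was 3.88 (SE 0.34, limma adjusted p = 0.000789). Pcna, the sliding clamp, stood at 10301, 5420 and 9267 against 962, 1448 and 978, a change of 2.84 (SE 0.27, limma adjusted p = 0.00126). Uhrf1, which brings the maintenance methyltransferase to copied DNA, gave 2932, 770 and 1841 against 66, 132 and 94. It was lowest at day 2 in MET_FLOX_canertinib, still well above day 0, and the change was 3.88 (SE 0.43, limma adjusted p = 0.0023). Rpa1, of the protein that coats single strands, rose by 1.59. The clamp loader genes Rfc2, Rfc3, Rfc4 and Rfc5 rose by 1.25 to 1.63 and the primase genes Prim1 and Prim2 by 1.75 and 1.40. Lig1, Pold1, Tipin and Dnmt1 made up the rest, between 1.14 and 1.68.

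Of 10 genes of deoxynucleotide synthesis 4 rose and none fell, and the median over the list was 0.74. Rrm2, the regulated subunit of ribonucleotide reductase, gave 10002, 5902 and 6390 at day 2 in MET_KO, MET_FLOX_canertinib and MET_FLOX, against 636, 961 and 633 at day 0. No array of day 2 came near those of day 0, and the change was 3.28 (SE 0.26, limma adjusted p = 0.000724). Rrm1, its partner subunit, rose by 1.73, Dut, which removes dUTP, by 1.87, and Dtymk, which phosphorylates dTMP, by 1.27. Tk1, the salvage kinase of thymidine, was at 2.02 (limma adjusted p = 0.06), and the genes of the base and folate pathways Cad, Umps and Mthfd1 lay between -0.07 and 0.08.

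Among 22 G1 cyclins, their kinases and E2F factors, 6 rose and none fell, with a median of 0.67. Ccnd1, the cyclin that growth factors induce, gave 8099, 5404 and 6256 at day 2 in MET_KO, MET_FLOX_canertinib and MET_FLOX, against 1152, 1249 and 1802 at day 0. All day 2 arrays stood above all of day 0, and the change was 2.23 (SE 0.31, limma adjusted p = 0.00699). Rbl1, a pocket protein that binds E2F, rose by 2.03, Cdk2, the kinase of S phase entry, by 1.20, E2f8, a repressor of the family, by 2.48, Cdc25a by 1.39 and Tfdp1 by 1.23. Ccne1, cyclin E1, gave 1894, 1310 and 930 against 177, 1018 and 351. Its groups overlapped because day 0 of MET_FLOX_canertinib was high, and its change of 1.68 was not called (limma adjusted p = 0.10).

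Mitotic cyclins, kinases and genes of anaphase promotion had the largest list median, 2.35, among the 6 cell cycle lists. Of 22 genes 15 rose and none fell. Cdk1, the kinase that starts mitosis, gave 4354, 2432 and 3234 at day 2 in MET_KO, MET_FLOX_canertinib and MET_FLOX, against 52, 102 and 294 at day 0, a change of 4.59 (SE 0.49, limma adjusted p = 0.00199). The day 0 level of MET_FLOX was the highest of its group and still far below day 2. Cdc20, which activates the anaphase-promoting complex, gave 4441, 3436 and 3363 against 279, 354 and 590, a change of 3.21 (SE 0.28, limma adjusted p = 0.000818). Ube2c, the ubiquitin-conjugating enzyme of that complex, rose by 4.75, and Ccnb2, a mitotic cyclin, by 4.55. The kinases Aurka, Aurkb, Plk1 and Ttk rose by 2.58, 2.68, 3.06 and 3.18, and the checkpoint gene Mad2l1 by 3.11. Wee1, which inhibits CDK1 and is also an output of the circadian clock, rose by 2.51. It was the only call among the 19 measured genes of the circadian clock list. Pttg1, securin, was at -0.57 (limma adjusted p = 0.23).

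Among 37 genes of the spindle, kinetochore, chromosome condensation and cytokinesis 23 rose and none fell, with a median of 2.24. Birc5, of the chromosomal passenger complex, gave 2665, 1570 and 2302 at day 2 in MET_KO, MET_FLOX_canertinib and MET_FLOX, against 19, 45 and 48 at day 0, and had the largest change of all genes, 5.38 (SE 0.52, limma adjusted p = 0.00126). Nuf2, a kinetochore subunit, gave 1679, 870 and 1315 against 13, 29 and 35, a change of 4.96 (SE 0.56, limma adjusted p = 0.00235). Both were near the bottom of the scale at day 0, under the array medians, so the sizes depend on the added 16: with 1 added instead they were 5.90 and 5.66, and with 64 added 4.45 and 3.88. The mean day 0 signal was under the mean of the array medians in 51 of the 155 risers. Mki67, a coat protein of mitotic chromosomes that marks cycling cells, gave 2839, 1496 and 1690 against 60, 65 and 190, a change of 4.17 (SE 0.36, limma adjusted p = 0.000762). Stmn1, which destabilises microtubules, was abundant on both days, at 9025, 7738 and 7213 against 1043, 1419 and 1486, and rose by 2.60 (SE 0.22, limma adjusted p = 0.000762). The condensin core genes Smc2 and Smc4 rose by 3.71 and 2.71, and Ect2, which activates RhoA at the cleavage furrow, by 3.56. Dividing cells themselves were not counted on these arrays, and the 6 lists describe transcripts only.

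**Figure D2:**
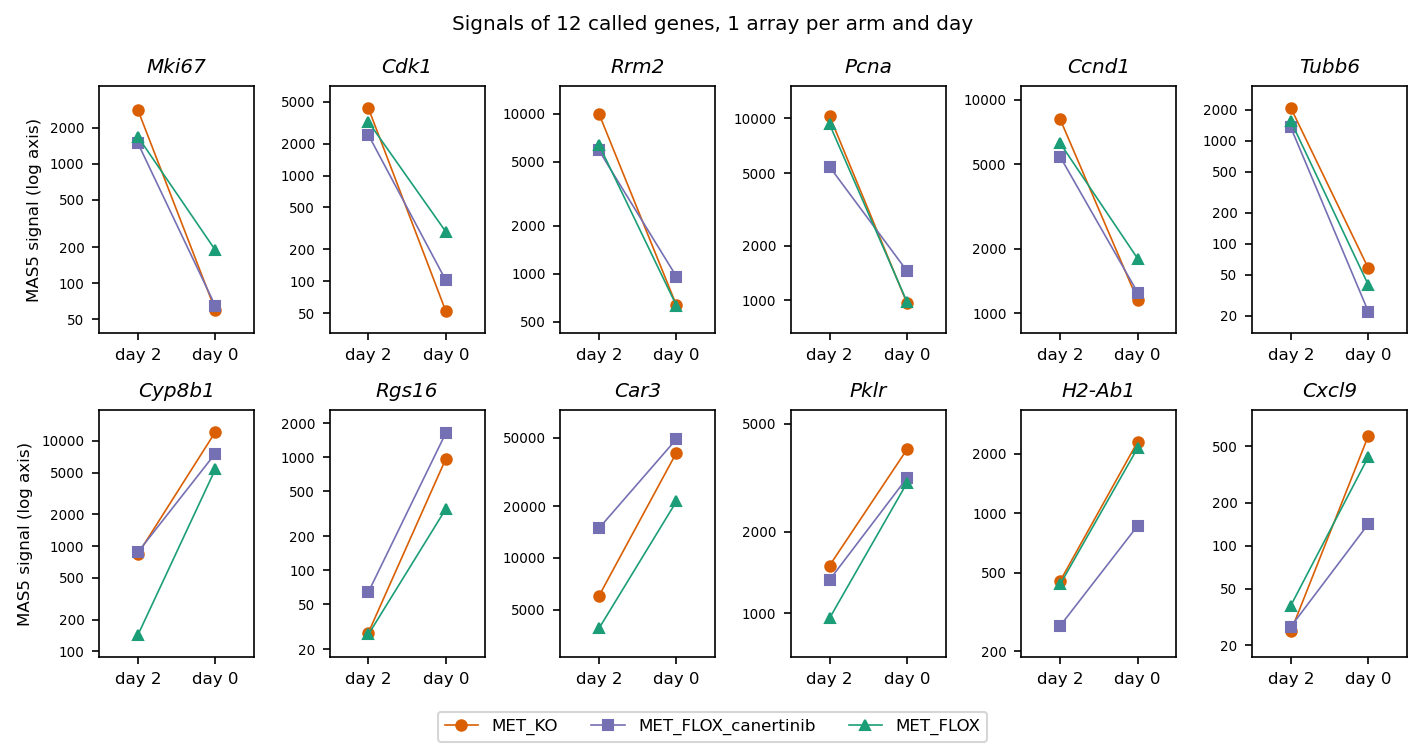
MAS5 signal on a log axis (y) at day 2 and day 0 (x) for 12 called genes, 1 point per array, with a line joining the arrays of an arm. Mki67 gave 1496 to 2839 at day 2 and 60 to 190 at day 0; Cyp8b1 gave 142 to 873 at day 2 and 5347 to 12105 at day 0.

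Outside the starting lists 70 of the 155 risers remained. Shcbp1, whose product sits at the central spindle, gave 978, 855 and 941 at day 2 in MET_KO, MET_FLOX_canertinib and MET_FLOX, against 18, 24 and 58 at day 0, a change of 4.34 (SE 0.34, limma adjusted p = 0.000724). Ncapg2, a condensin subunit, rose by 4.14, Knstrn, a spindle and kinetochore protein, by 3.30 with all 4 of its probe sets, Dnajc9, a histone chaperone, by 3.16 and the histone H2ax by 1.85. D17H6S56E-5, for which no role is given here, gave 6876, 6138 and 5892 against 366, 679 and 599, and it had one of the smallest p-values of the comparison (3.53, SE 0.28, limma adjusted p = 0.000724). A list of 26 histone, histone chaperone and chromatin genes and one of 40 genes of nuclear pores and transport were put together after values had been seen. Of the 26 genes 8 rose and none fell, among them Asf1b (3.14), Hmgb2 (2.57), Hat1 (2.11) and H2az1 (1.87). Of the 40 genes 5 rose and none fell, Nup107 by 2.81, the importin Kpna2 by 1.72, Nup133 by 1.16, Rangap1 by 1.13 and the exportin Xpo1 by 1.08.

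Genes of the cell's scaffold were higher too. In the list of tubulins, actins and intermediate filaments 5 of 22 rose and none fell, 19 of 22 changes were positive and the median was 0.86. Tubb6, a beta-tubulin near the bottom of the scale at day 0, gave 2088, 1349 and 1554 at day 2 in MET_KO, MET_FLOX_canertinib and MET_FLOX, against 58, 22 and 40 at day 0. It changed by 4.94 (SE 0.55, limma adjusted p = 0.00226), and its size depends on the added constant, at 5.43 with 1 and 4.05 with 64. Tubb5, the general beta-tubulin, gave 9649, 8848 and 7160 against 2903, 2987 and 2736, a change of 1.56 (SE 0.18, limma adjusted p = 0.00282). Tpm4, a tropomyosin, rose by 1.16, Krt8, a keratin of hepatocytes, by 1.20, and Actg1, an actin, by 1.02. Of the CDK inhibitors and p53 targets 2 of 20 rose, Cdkn2c by 1.97 and Phlda3 by 1.42, where 1.14% of all genes were called higher. Cdkn1a, the p21 gene, was uneven, with 1870, 1342 and 1092 at day 2 against 318, 1103 and 862 at day 0, and its change of 1.04 was not called (limma adjusted p = 0.26).

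The lists linked to growth signalling and protein synthesis held 1 call, Erbb3, where 1.53% of all genes were called in either direction, so their counts are near the background. Of 27 ribosome biogenesis genes none was called, although 21 changes were positive, with a median of 0.29, and Nhp2 was at 0.99 (limma adjusted p = 0.07). Of 20 ERK immediate-early and feedback genes none was called, and the median of -0.04 was 0.06 with centred arrays and 0.02 after quantile normalization. Dusp1, a phosphatase of MAP kinases, was at -0.78 and Atf3, a stress-induced transcription factor, at 1.92, with limma adjusted p-values of 0.08 and 0.10. Of 22 growth factor ligands and receptors only Erbb3, the partner receptor of the EGFR family, was called. It gave 2634, 2204 and 2074 at day 2 in MET_KO, MET_FLOX_canertinib and MET_FLOX, against 4733, 3741 and 4767 at day 0, without overlap. Its change was -0.93 (SE 0.17, limma adjusted p = 0.0327). Of 17 genes of the growth hormone and IGF axis none was called, with 3 positive changes and a median of -0.49.

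Of the 53 genes that fell, 43 were in no starting list. In the metabolism lists 6 fell, all in those of bile acid and glucose handling, and Erbb3, Birc3, Pigr and Car3 stood in other lists. Over all genes 0.39% were called lower. Cyp8b1, the sterol hydroxylase that determines the share of cholic acid, gave 836, 873 and 142 at day 2 in MET_KO, MET_FLOX_canertinib and MET_FLOX, against 12105, 7572 and 5347 at day 0. All 3 arms were low at day 2, MET_FLOX most, and the change was -4.00 (SE 0.61, limma adjusted p = 0.0114). In the bile acid list 3 of 22 fell and none rose, with a median of -0.51: the others were Slc10a1, the uptake transporter of bile acids, at -1.06, and Cyp27a1, a sterol hydroxylase of mitochondria, at -1.01. Of 24 genes of glycolysis and gluconeogenesis 3 fell and none rose, with a median of -0.30. Without the day 2 array of MET_KO the medians of these lists were -0.29 for bile acids and -0.14 for glucose. Pklr, the liver pyruvate kinase, gave 1501, 1329 and 960 against 4032, 3163 and 3032, a change of -1.43 (SE 0.17, limma adjusted p = 0.00304), and all 3 of its probe sets were lower. Pdk1, a kinase that restrains pyruvate dehydrogenase, fell by 1.45, and Pygl, the liver glycogen phosphorylase, fell by 0.88. With the 6 arrays of days 0 and 2 alone Slc10a1, Cyp27a1 and Pygl were not called (limma adjusted p = 0.0834, 0.0831 and 0.103). Cyp8b1, Pklr and Pdk1 kept the call there.

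The lists of lipid, urea cycle and cytochrome genes held no call, against a background of 1.53% of all genes. Fatty acid and triglyceride synthesis had 3 positive changes of 23 and a median of -0.60; within the arms the medians were -1.19 in MET_KO, -0.79 in MET_FLOX_canertinib and 0.12 in MET_FLOX. Its genes with the smallest p were Mlxipl, which encodes ChREBP, at -0.76 and Me1, malic enzyme, at -1.16, with limma adjusted p-values of 0.07 and 0.09. Cholesterol synthesis had a median of -0.40 over 20 genes, the urea cycle and amino acid breakdown -0.39 over 33, and xenobiotic cytochromes -0.32 over 26. After quantile normalization these last 2 medians were -0.08 and -0.15, near that of all genes (-0.06), and without the day 0 array of MET_FLOX_canertinib that of cholesterol synthesis was -0.06. Fatty acid oxidation had a median of -0.11 over 26 genes, near that of all genes, and of 0.06 with the mean over probe sets. Over the 9 metabolism lists together 2 of 212 genes rose and 6 fell. The 2 were Gsta4, a glutathione transferase, at 1.22 and Gsr, glutathione reductase, at 0.86. Among all genes 1.14% were called higher, so the count of 2 is near the background. Without pairing by arm neither was called (limma adjusted p = 0.545 and 0.557).

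The largest falls outside these lists had varied roles. Rgs16, which shortens G protein signals, gave 28, 64 and 27 at day 2 in MET_KO, MET_FLOX_canertinib and MET_FLOX, against 965, 1634 and 348 at day 0, a change of -3.97 (SE 0.61, limma adjusted p = 0.0124). It was close to the bottom of the scale at day 2 in all 3 arms. Car3, a carbonic anhydrase abundant in liver and fat, gave 6008, 14876 and 3888 against 40959, 49168 and 21330, and all 4 probe sets were lower (-2.31, SE 0.30, limma adjusted p = 0.00476). Arrdc3, an arrestin-related adaptor, changed by -2.27, Fzd9, a Wnt receptor, by -2.51, Dio1, which activates thyroid hormone, by -1.79, and Csad, an enzyme of taurine synthesis, by -2.12. The size for Fzd9 depends on the added constant, at -3.13 with 1 and -1.68 with 64. With the 6 arrays of days 0 and 2 alone Fzd9, Dio1 and Csad were not called (limma adjusted p = 0.106, 0.079 and 0.0584). Rgs16, Car3 and Arrdc3 kept the call there. The day 2 and day 0 signals of Csad overlapped between arms, at 1080, 942 and 2444 against 1850, 8540 and 13169. Leap2, a peptide secreted by the liver, gave 990, 1254 and 848 against 3703, 2845 and 3397, a change of -1.68 (SE 0.21, limma adjusted p = 0.00399). Agps was at -2.12, but only 1 of its 3 probe sets had that sign. Mup10 (-2.21) and Ces1e (-1.78) belong to families of near-identical genes, and the probe sets may read relatives as well.

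Immune genes appeared on the falling side. A list of MHC class II genes and one of interferon-induced genes were put together after values had been seen, so their counts are descriptions. Of 8 class II genes 3 fell and none rose, where 0.39% of all genes were called lower. H2-Ab1, a class II chain, gave 454, 269 and 437 at day 2 in MET_KO, MET_FLOX_canertinib and MET_FLOX, against 2308, 865 and 2146 at day 0, a change of -2.06 (SE 0.27, limma adjusted p = 0.00487). Cd74, the invariant chain, fell by 1.68 and H2-Eb1 by 1.29, while the class II activator Ciita was at -0.28 (limma adjusted p = 0.754). Of 21 interferon-induced genes 3 fell, and 0 of 21 changes were positive, against 5642 of 13575 over all genes. Cxcl9, a chemokine that draws T cells, gave 25, 27 and 38 against 590, 142 and 420, a change of -2.93 (SE 0.61, limma adjusted p = 0.0489). Ifit3 and Rsad2, antiviral effectors, changed by -2.03 and -1.95. Markers of the cells that carry class II were measured beside these. Of 8 macrophage markers only Marco, a scavenger receptor, was called, at 1.56. Without a call, Csf1r, Clec4f, Timd4, Adgre1, C1qa and Vsig4 lay between -0.68 and -0.24, and Cd5l was at 0.05. The summed signal of the 8 was 11715, 17527 and 22400 at day 2 against 18979, 15782 and 27255 at day 0. Of 5 lymphocyte markers 4 were measured and none was called, with sums of 1098, 2592 and 1355 against 1521, 2689 and 1722. Their part in the falls was not tested.

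Hepatocyte genes were present at high level on both days. The 5 hepatocyte markers Alb, Ttr, Apoa1, Cps1 and Hnf4a changed by -0.51 to -0.21 and none was called. Their summed signal was 94590, 341676 and 131610 at day 2 in MET_KO, MET_FLOX_canertinib and MET_FLOX, against 163985, 336851 and 170072 at day 0. Of 20 hepatocyte transcription factors none was called, and of 37 secreted proteins only Apoa4 was, at 1.16. Of 29 acute phase genes none was called. Lcn2, a secreted acute phase protein, gave 17547, 46342 and 20413 at day 2 against 481, 68801 and 1260 at day 0, so that its arms disagreed. Over 9 cell type lists with 127 measured genes 3 rose and 1 fell: Marco, the matrix protein Sparc (1.17), the smooth muscle protein Tagln (1.80), and Car3, which the adipocyte list shares with liver. Among all genes 1.14% were called higher and 0.39% lower, so the counts in these hepatocyte and cell type lists are near the background. The defining stellate markers Acta2, Des, Lrat, Col1a1 and Pdgfrb were not called, and their sums were 2768, 2584 and 2397 against 2712, 2586 and 2546. None of the 3 defining adipocyte markers passed the filter on low signals. In bulk liver a change in the number of cells of a type and a change in RNA per cell cannot be told apart.

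**Figure D3:**
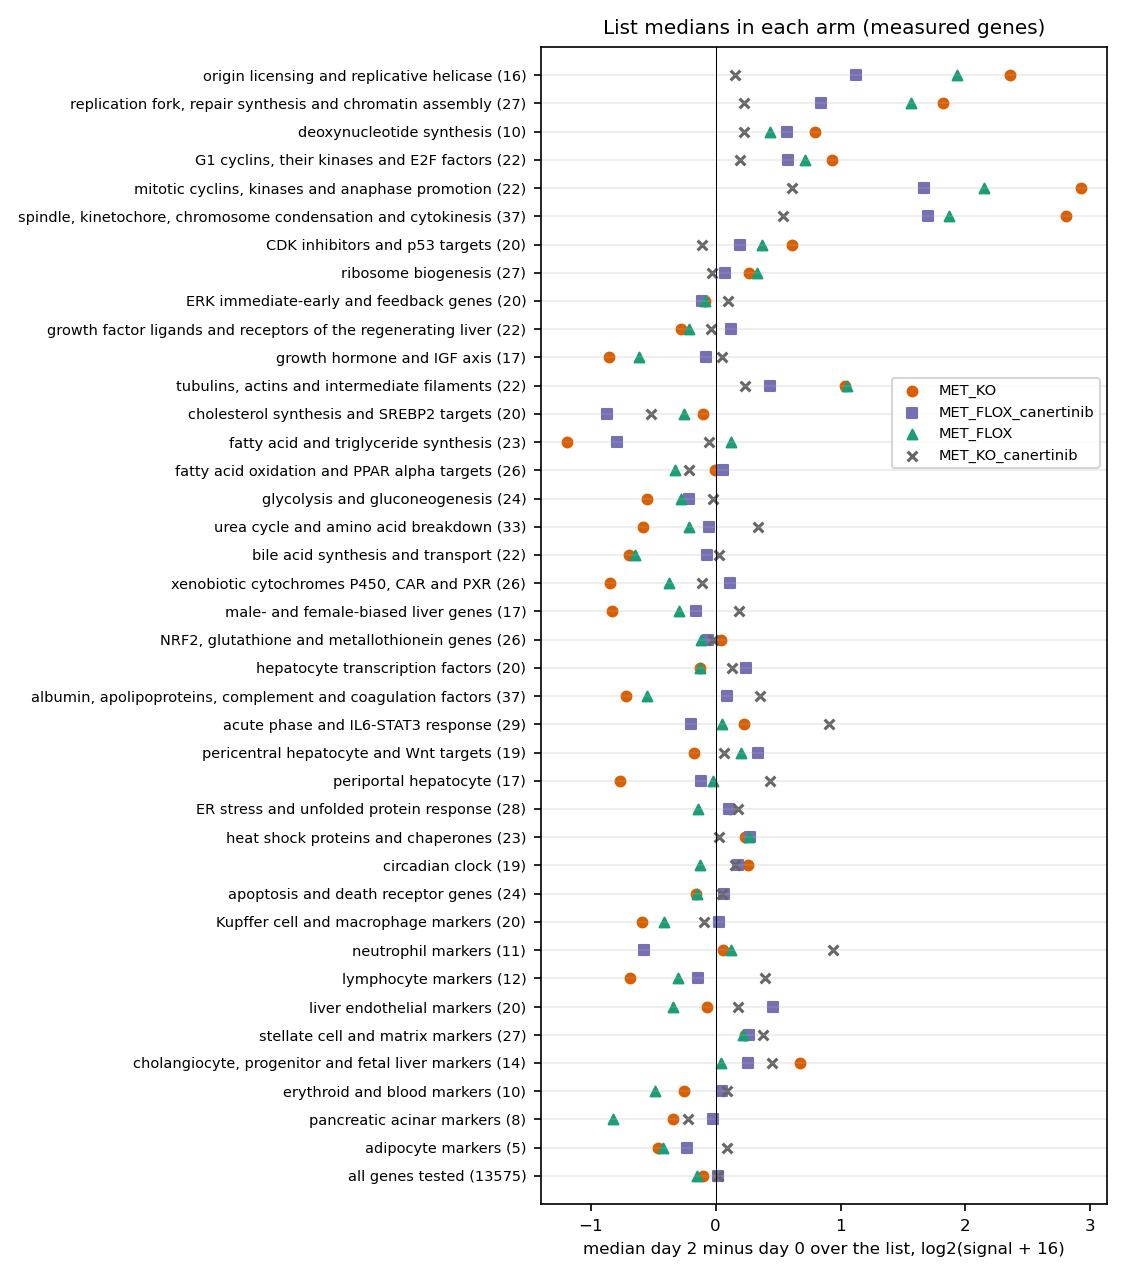
Median day 2 minus day 0 over each list on log2(signal + 16) (x axis), with measured genes in brackets, and a symbol for each of the 3 arms and for MET_KO_canertinib (cross). Over the 6 cell cycle lists together the medians were 2.04 in MET_KO, 1.10 in MET_FLOX_canertinib and 1.55 in MET_FLOX, and 0.34 in MET_KO_canertinib.

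The 3 arms differed in the size of the response. The 134 measured genes of the 6 cell cycle lists changed by a median of 2.04 in MET_KO, 1.10 in MET_FLOX_canertinib and 1.55 in MET_FLOX, where the medians of all genes were -0.10, 0.02 and -0.15. Among the 155 risers the change was the smallest of the 3 arms in MET_FLOX_canertinib for 91, in MET_FLOX for 51 and in MET_KO for 13, and it was the largest in MET_KO for 97. More than a doubling was seen for 150 of them in MET_KO, 115 in MET_FLOX_canertinib and 142 in MET_FLOX. The order was the same for the 53 genes that fell, with medians of -1.65, -0.97 and -1.31 in these arms. With 1 array per arm and day these differences between arms have no test, and the MET_FLOX_canertinib arrays lie in the other array set. Ect2 shows the pattern, with changes of 4.8, 2.5 and 3.4 in the order given, while Tubb6, at 4.8, 5.2 and 4.8, was even over the arms. Across all genes, the changes of 2 arms correlated weakly, with Pearson's r of 0.274 for MET_KO and MET_FLOX_canertinib, 0.372 for MET_KO and MET_FLOX, and 0.210 for MET_FLOX_canertinib and MET_FLOX. Genes are not independent replicates, and these values carry no test.

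**Figure D4:**
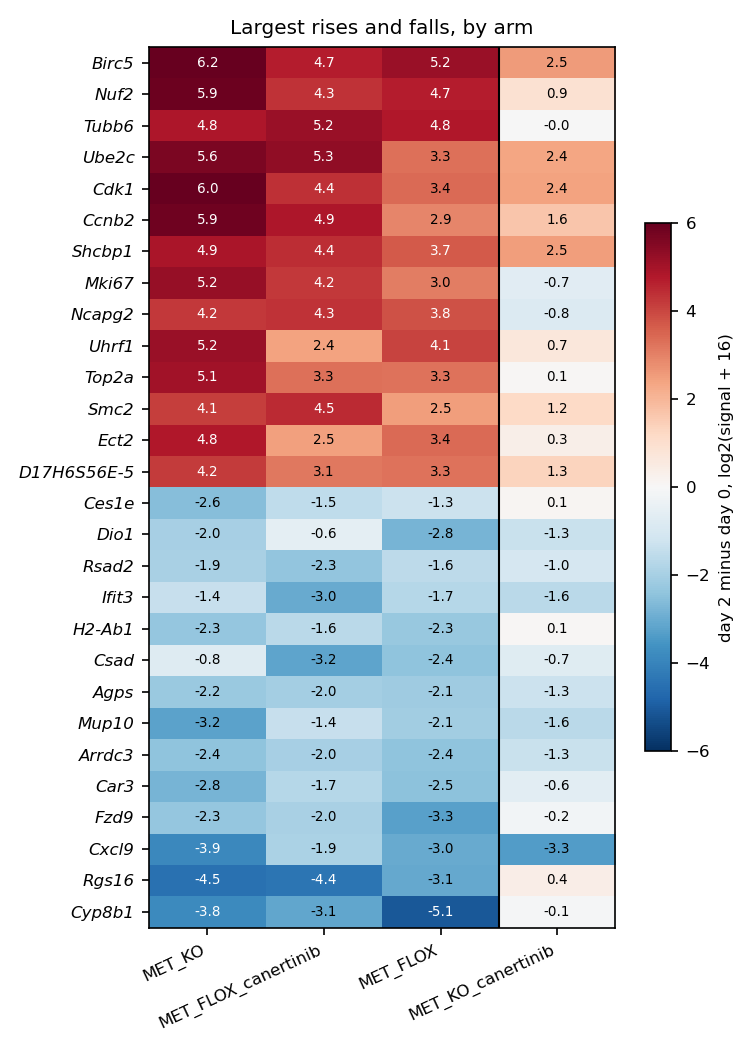
Day 2 minus day 0 on log2(signal + 16) for the 14 largest rises and 14 largest falls (rows) in each arm (columns), as colour and number, with MET_KO_canertinib right of the black line. The rows were chosen to share the sign in the 3 arms. Birc5 ranges from 4.7 to 6.2 among these arms, against 2.5 in MET_KO_canertinib.

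Over the course of the study the median signal of the 155 risers was highest at day 2 in each of the 3 arms. For days 0, 2, 7 and 14 it was 324, 1988, 474 and 397 in MET_KO. The same 4 days gave 387, 1181, 464 and 380 in MET_FLOX_canertinib, and 364, 1529, 565 and 435 in MET_FLOX. Day 14 of MET_KO and MET_FLOX lies in the other array set. Ccnd1 stood at 2187, 5293 and 3632 on day 7 in MET_KO, MET_FLOX_canertinib and MET_FLOX, above every day 0 array. For the 53 genes that fell the medians over these days were 2215, 776, 1700 and 1873 in MET_KO. They were 2282, 907, 1614 and 1683 in MET_FLOX_canertinib, and 2296, 848, 1657 and 1764 in MET_FLOX. Choosing the genes by day 2 against day 0 sets part of these courses. Rgs16 stood at 72, 1172 and 50 on day 7 in these arms, so that it was back near day 0 only in MET_FLOX_canertinib.

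In MET_KO_canertinib the same genes moved less. The 6 cell cycle lists had a median change of 0.34 there, with 15 of 134 genes more than doubled, and the all-gene median was 0.02. With 1 or 64 added in place of 16 the cell cycle median was 0.36 or 0.30. Of the 155 risers 146 had a smaller change in MET_KO_canertinib than in each of the 3 arms, and 39 had the opposite sign. These genes were chosen by their change in the 3 arms, which favours larger values there, so this count is a description. Pcna, Top2a and Tubb6 changed by 0.17, 0.06 and -0.02. Birc5, Cdk1, Ube2c and Shcbp1 changed by 2.54, 2.43, 2.36 and 2.50, which is less than in the other arms but more than 4-fold on this scale. The arrays of MET_KO_canertinib, with medians of 246.4 at day 2 and 244.0 at day 0, lie in the same array set as those of MET_FLOX_canertinib. Within this set the median signal of the risers was 531 at day 2 and 440 at day 0 in MET_KO_canertinib, against 1181 and 387 in MET_FLOX_canertinib. Signals of MET_KO and MET_FLOX lie in the other set and are not set beside these.

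The difference between responses, MET_KO_canertinib minus the mean of the 3 arms, was tested over all genes and 0 of 13575 were called with limma (0.00%). At an unadjusted p below 0.05 there were 835, where 679 arise by chance. This excess depended on the fit: the count was 309 with no replicate block and 611 with the day 14 arrays, and leaving out an arm or array it was 606 (without arm MET_KO) to 1474 (without arm MET_FLOX_canertinib). The test rests on 1 day 2 array of MET_KO_canertinib, whose spread was assumed to be that of the other arms, and that array had a Gapdh 3' to 5' ratio of 1.35; the part of RNA quality was not tested. Given as values, the response difference was -4.95 for Ncapg2 (SE 0.76, limma adjusted p = 0.22), -4.84 for Mki67 (SE 0.75, limma adjusted p = 0.22) and -3.82 for Top2a (SE 0.69, limma adjusted p = 0.317), where a negative value is a smaller response in MET_KO_canertinib. Among the genes that fell in the 3 arms, Cyp8b1 was at 3545 at day 2 and 3735 at day 0 in MET_KO_canertinib, and H2-Ab1 at 1062 and 1003. Cxcl9 gave 114 and 1289 there, a change of -3.33, and Ifit3 gave 861 and 2640, a change of -1.60. The median of the class II list was 0.09 in this arm, against -1.47 for MET_KO, -0.45 for MET_FLOX_canertinib and -0.76 for MET_FLOX. The interferon-induced list had a median of -1.13, against -0.75, -1.16 and -1.03.

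**Figure D5:**
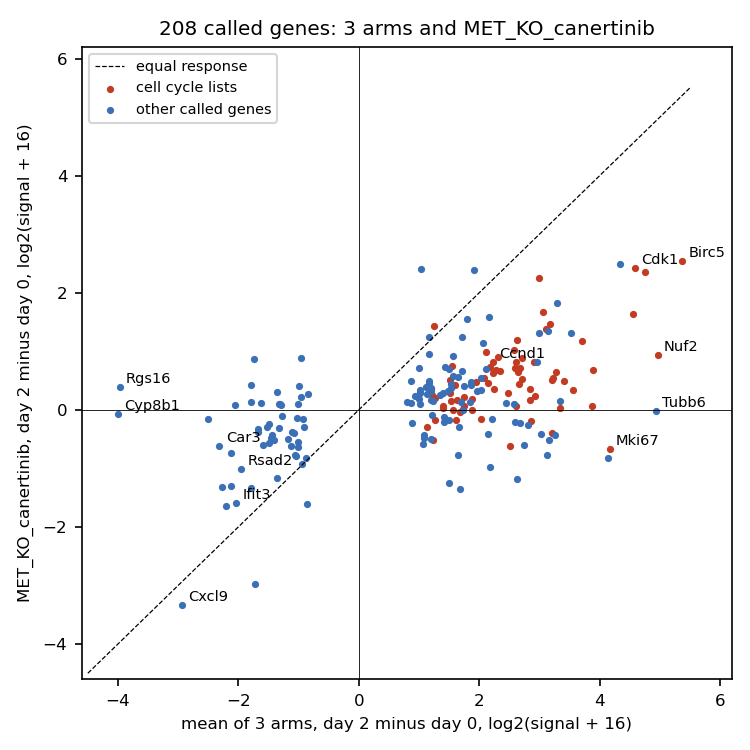
Day 2 minus day 0 on log2(signal + 16) in MET_KO_canertinib (y axis) against the mean of the 3 arms (x axis) for the 208 called genes, red for the cell cycle lists, with a dashed line of equal change. Of the 155 risers 146 changed less in MET_KO_canertinib than in each of the 3 arms, and Cxcl9 lies near the line at -2.93 and -3.33.

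The falls held less firmly than the rises. Leaving out an arm or 1 array in turn, the count of genes that rose was 33 to 167 and the count that fell 2 to 72. Without the day 2 or the day 0 array of MET_KO 49 and 67 rose and 8 and 9 fell, and without those of MET_FLOX 76 and 71 rose and 18 and 19 fell. Without those of MET_FLOX_canertinib the counts were 134 and 143 higher and 61 and 35 lower. Of the 65 called genes that the naming rule chose, 23 kept the call under every one of the 20 alternatives in which they were tested. Among them were Birc5, Cdk1, Mki67, Top2a, Rrm2, Mcm2, Mcm7 and Pcna, and none of the 23 was a fall. Shcbp1, also among the 23, did not pass the filter on the mean and was not tested there. Over the alternatives the limma adjusted p was 0.00221 to 0.113 for Cyp8b1, 0.00391 to 0.106 for Car3, 0.00108 to 0.0711 for Pklr, 0.00136 to 0.0813 for H2-Ab1 and 0.00878 to 0.463 for Cxcl9, each negative throughout.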

How the data were processed

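Liver RNA, extracted with Trizol, was measured on Affymetrix arrays from 6 ug total RNA, per the labels' protocols. The authors deposited MAS5 signal intensity per probe set, per the submitters' processing notes, scaled to a mean of 500 per array once 2% of probe sets are trimmed at each end. For MAS5 a version was not given in the sources used here. Of 45101 probe sets, 64 controls were dropped, and of the others 34945 named 1 gene in the platform annotation, 932 several and 9160 none. Probe sets of 1 gene were kept where at least 4 of 16 arrays exceeded their own median (22315), and each gene was read from its brightest probe set by mean. Values were log2(signal + 16).

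Genes were tested two-sided with limma 3.58.1 in R 4.3.3, with an intensity trend, arm as a block and day as a factor, over days 0, 2 and 7 of the 3 arms (9 arrays, 4 residual degrees of freedom). The day 7 arrays add only to the spread, and the moderation over all genes adds 5.71 prior degrees of freedom. Pairing by arm follows from the labels, which give each arm 1 array per day. The response difference used 12 arrays with a separate course for MET_KO_canertinib.

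Named genes were the 14 largest rises and falls among called genes above the array medians with the same sign in all 3 arms. To these were added up to 3 called genes per list with the smallest p (or 2 uncalled ones). The 6 in no list with the smallest p each way, and Met, Egfr, Hgf, Mki67, Ccnd1 and Pcna, were named too. Further list members and genes were named after their values were seen. The comparison, the 39 lists and the rules were chosen with earlier results of these data known. The number of arrays limits the precision. The tests were also run on simulated data. Promoter sequences are RefSeq's.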

Additional observations from a re-analysis of the deposited data

How the results depend on the processing

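The 3 arms gave 208 called genes, 155 higher and 53 lower. With the 6 arrays of days 0 and 2 alone 118 genes were higher and 31 lower, of which 108 and 19 were among the 155 and 53. In that fit the named falls Birc3, Csad, Cxcl9, Cyp27a1, Dio1, Erbb3, Fzd9, Pigr, Pygl and Slc10a1 were not called. Nor were the named rises Apoa4, Cdk2, Gsr, Phlda3, Rbl1, Sparc and Tagln. With no replicate block, that is without pairing by arm, 83 were called, 74 higher and 9 lower. With arrays centred on their median 34 were lower, and with no intensity trend 91 were called, 77 higher and 14 lower; the cause was not tested. Leaving out an arm or array in turn gave 35 to 239 called genes, 33 to 167 higher and 2 to 72 lower, lowest without arm MET_KO and highest without arm MET_FLOX_canertinib. Fewer arrays enter each of these fits. Without arm MET_FLOX_canertinib 121 of the 167 higher and 28 of the 72 lower were among the 155 and 53. The counts were within 1.5 times of 208, 155 and 53 under the other alternatives run: 12 arrays with day 14, constants of 1 or 64, no filter or a filter on the mean, quantile normalization, and the mean over probe sets. Like counts were not always of the same genes. With day 14 added 134 were higher and 55 lower, of which 125 and 40 were among the 155 and 53. The response difference called 0 genes under every alternative run.

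Of 1296 values of the 65 named called genes 968 kept the call, 328 lost it and 0 reversed. Leaving out arms or arrays, Egfr, not called, ranged from -0.62 without day 0 of MET_FLOX to 0.14, Hgf from -0.30 to 0.64, and Met from -0.31 to 0.00. Egfr was 0.03 without arm MET_KO, 0.09 without arm MET_FLOX_canertinib, 0.06 without day 2 of that arm and 0.14 without day 0 of MET_KO. Hgf was -0.17 without arm MET_FLOX_canertinib and -0.30 without its day 0 array, and Met was 0.00 without day 0 of MET_KO. Of 860 list medians 63 moved by more than the SD over arms, most often those of the immediate-early, stellate and matrix, NRF2 and glutathione, and heat shock lists. Signals near the bottom of the scale limit the size of a change, as in the 51 risers whose day 0 mean lay under the array medians.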

Other observations

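Apart from the clock list, where Wee1 rose, the lists on stress and zonation held 3 calls, Birc3, Cyp27a1 and Pigr, all lower. The counts of these lists are read against 1.53% of all genes called. Of 23 heat shock and chaperone genes none was called, although 21 changes were positive, with a median of 0.26 (0.37 with centred arrays, 0.17 with the mean over probe sets); Hsp90aa1, a chaperone of kinases, was at 0.78 (limma adjusted p = 0.07). Of 28 genes of ER stress none was called, with a median of -0.02, which was 0.09 with centred arrays. Among 24 apoptosis genes Birc3, an inhibitor of cell death in TNF signalling, gave 398, 273 and 423 at day 2 in MET_KO, MET_FLOX_canertinib and MET_FLOX, against 967, 593 and 760 at day 0, and changed by -1.05 (SE 0.21, limma adjusted p = 0.041). Of 19 pericentral genes only Cyp27a1 was called, and of 17 periportal genes only Pigr, the transporter of polymeric immunoglobulins, at -1.18. None of 17 genes that differ between the sexes was called, with a median of -0.47, which was -0.18 without arm MET_KO or its day 2 array. No gene was called in the neutrophil, lymphocyte, endothelial, cholangiocyte and progenitor, erythroid or acinar lists; Afp, the fetal albumin-like protein, was at 1.44 (limma adjusted p = 0.06).

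The following risers lie outside the 6 cell cycle lists and were picked out after their values were seen. Neurl1b, a ubiquitin ligase of Notch ligands, gave 533, 562 and 693 at day 2 in MET_KO, MET_FLOX_canertinib and MET_FLOX, against 20, 31 and 109 at day 0, and 27 at day 2 against 23 at day 0 in MET_KO_canertinib. Nfic, a transcription factor, gave 2438, 2110 and 2781 against 923, 684 and 957, and all 4 of its probe sets were higher. Noct, a clock-controlled phosphatase of NADPH, gave 4438, 2142 and 3282 against 635, 1287 and 1027. Myh10, a nonmuscle myosin of cytokinesis and cell shape, rose by 1.92 over the 3 arms and differed by 2.38 in MET_KO_canertinib, at 403 on day 2 against 64 on day 0.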
